A study of Arabidopsis thaliana with 4 samples.

Results

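Leaves of *atbbd1* plants, which carry a T-DNA insertion in *AtBBD1* and had been given 20% polyethylene glycol (PEG) for 6 h, were set against untreated wild-type (WT) leaves taken at 0 h. Expression was given as FPKM, which scales a gene's fragments by its exon length and by the mapped fragments of the library, and a gene was kept when it reached 1 FPKM or more in either library. This left 15970 of the 27655 genes in the table, and 6903 of the others were listed at 0 in both libraries. At the limit, 11 genes whose larger value was 1.00 FPKM were kept and 17 genes at 0.99 FPKM were not.

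The series held 4 libraries of *Arabidopsis thaliana* leaf mRNA from 3-week-old plants, 1 per group. They were WT at 0 h without PEG, WT after 6 h of 20% PEG, the overexpressor p35S:AtBBD1 (OX) after the same treatment, and *atbbd1* after the same treatment. The mutant was 1 insertion line and the overexpressor 1 transgenic line, each library was made from pooled leaves of several plants, and no untreated *atbbd1* library was analysed here. The comparison therefore differs in genotype, in PEG and in the hour of sampling, which cannot be told apart, and with 1 library on each side no spread between replicates and no p-value can be given. A gene was called higher or lower when the ratio of FPKM was 2-fold or more, and 95% intervals on single genes cover counting error only, from estimated reads. The WT library after PEG was used to name the rises and falls of WT against the same 0 h library, so both ratios share that library and its errors.

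Osmotic stress raises abscisic acid (ABA), which binds PYR/PYL receptors. The receptors then block clade A protein phosphatases 2C (PP2Cs), SnRK2 kinases become active, and bZIP factors of the ABF group switch on late embryogenesis abundant (LEA) proteins and other protective genes through ABA-responsive elements in their promoters. A second branch runs through CBF and DREB factors and the dehydration-responsive element, largely without ABA. Apart from stress, a large share of leaf genes follows the circadian clock, with morning genes such as *CCA1* and *LHY* and evening genes such as *TOC1* and *PRR5*. *AtBBD1* codes for a bifunctional nuclease that can cut DNA and RNA.

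*AtBBD1* (AT1G75380) itself stood at 95.5 FPKM in WT at 0 h, 541 in WT after PEG, 631 in OX after PEG and 36.6 in *atbbd1* after PEG. Its transcript was thus still counted in the mutant, at 2.61-fold less than in untreated WT (95% interval 2.43 to 2.79) and 14.8-fold less than in WT under the same treatment (13.9 to 15.7). A value per gene does not show which side of the insertion these reads came from. The paralog *AtBBD2* (AT1G19660) was at 68.6 FPKM in untreated WT and 140.1 in *atbbd1* after PEG, a ratio of 2.04 (1.94 to 2.16), and at 198 in WT and 229 in OX after PEG.

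Of the genes kept, 2093 were at least 2-fold higher in *atbbd1* after PEG than in WT at 0 h (13.1%) and 3045 were at least 2-fold lower (19.1%). At 4-fold the numbers were 797 and 1162. Of the higher genes, 586 were under 1 FPKM in WT at 0 h, and of the lower genes 765 were under 1 FPKM in *atbbd1*. Such genes passed the filter through their high side alone and had to differ, so a count over the kept members of a list is a description, and where it matters the median over all listed members is given beside it (0.00 over all genes in the table). In all, 8606 genes (53.9%) were at or below the 0 h level, and the log2 ratio of the median gene was -0.07 after adding 1 to all FPKM values, as for every list below. On that scale the 12 largest rises among genes of 10 FPKM or more were all genes that rose in WT too, and the 12 largest falls were all genes that fell in WT. The rises were led by AT2G33830, a dormancy and auxin associated protein, which was at 0.35 FPKM in WT at 0 h, 489 in WT after PEG, 307 in OX and 437 in *atbbd1*. The falls were led by the morning clock factor *LHY*, which was at 125 FPKM in untreated WT and at 0.45, 0.40 and 0.36 in WT, OX and *atbbd1* after PEG.

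**Figure D1:**
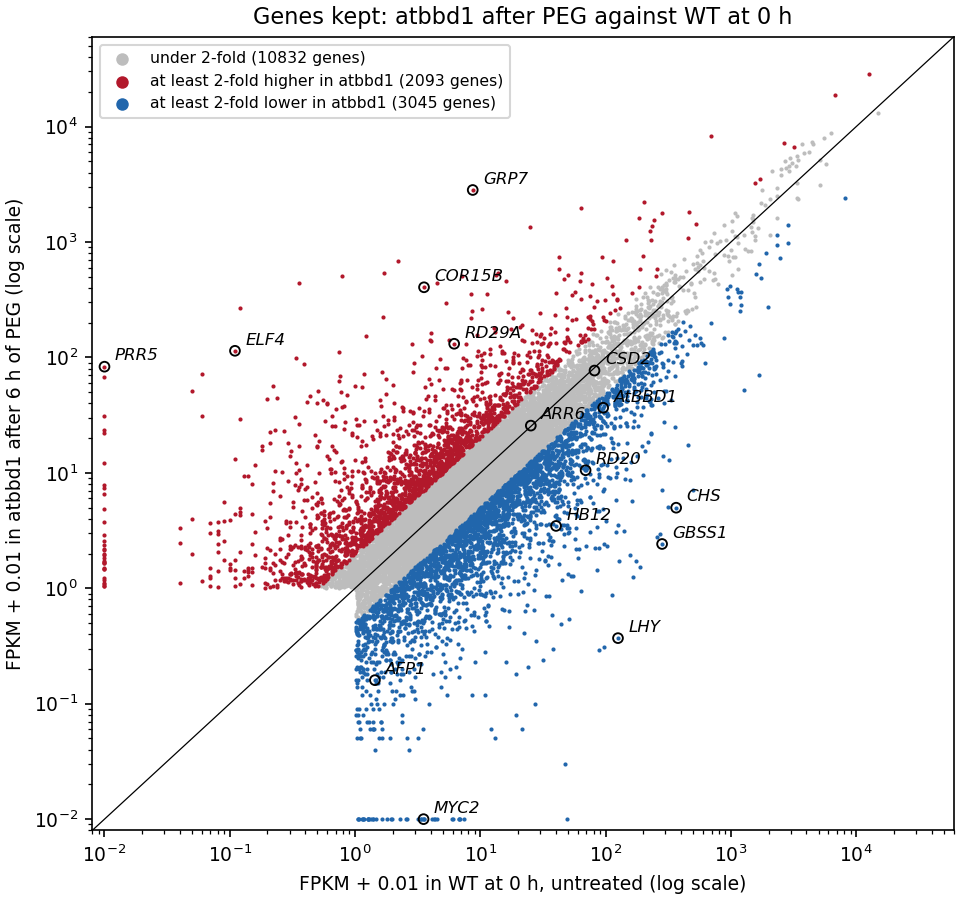
FPKM of the 15970 genes kept in *atbbd1* after 6 h of PEG (vertical axis) against WT at 0 h (horizontal axis), both on log scales after adding 0.01, with 1 point per gene and 1 library per axis. The 2093 genes in red were at least 2-fold higher in *atbbd1* and the 3045 in blue at least 2-fold lower. Named genes are circled.

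The next question was which rises and falls of WT were still seen without *AtBBD1*. Among the genes kept, 2385 rose at least 2-fold in WT under PEG (14.9%) and 2601 fell at least 2-fold (16.3%). Of the rises, 1836 were also at least 2-fold higher in *atbbd1*, 493 were above the 0 h level by less than 2-fold, and 56 were at or below it. The filter on *atbbd1* and WT at 0 h removes by construction those WT rises that stayed low in the mutant, so the 168 removed rises were counted separately. Of these, 55 were at or below the 0 h level and 113 above it, which gives 111 WT rises at or below the 0 h level in *atbbd1* in all. Of the falls, 2268 were also at least 2-fold lower in *atbbd1*, 320 were lower by less than 2-fold, and 13 were at or above the 0 h level. The median gene of the 1836 rises had a log2 ratio of 1.37 in *atbbd1* and 1.45 in WT, and the median gene of the 2268 falls had -1.49 and -1.37. These counts follow in part from the shared 0 h library. Conversely, 257 of the genes called higher in *atbbd1* were not WT rises and 777 of those called lower were not WT falls.

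**Figure D2:**
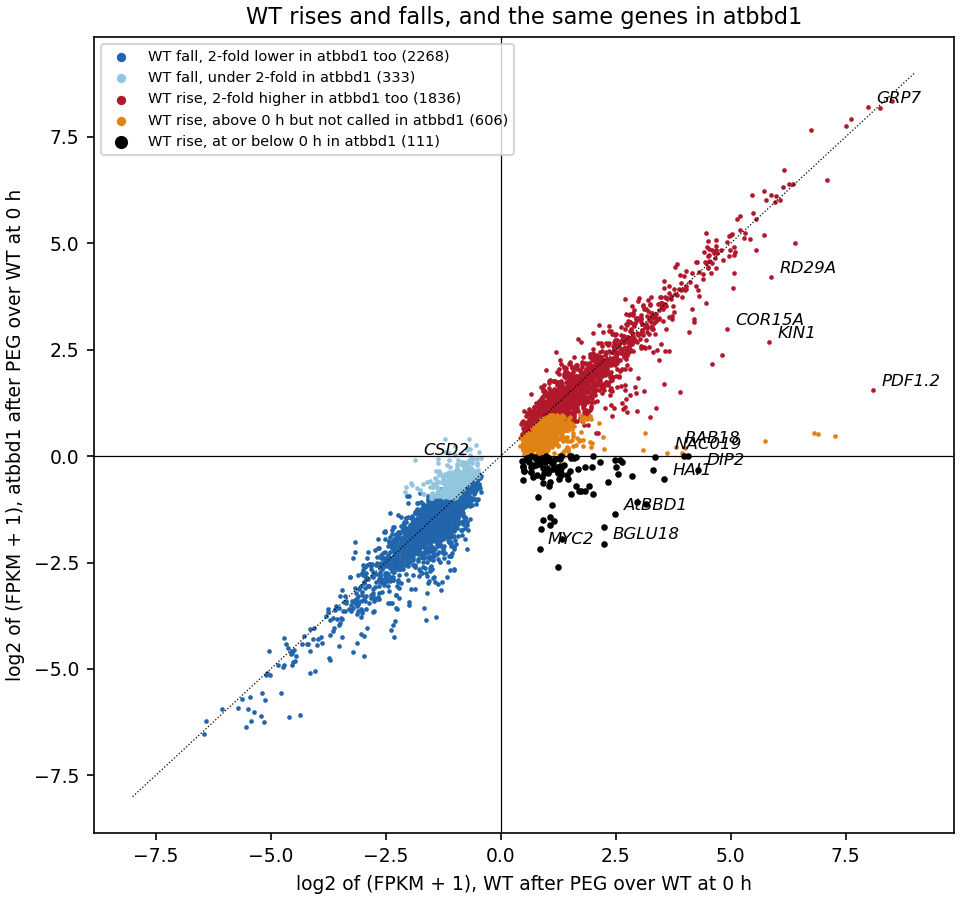
Log2 ratios, after adding 1 to all FPKM values, of WT after PEG over WT at 0 h (horizontal axis) and of *atbbd1* after PEG over WT at 0 h (vertical axis) for every WT rise and fall, 1 point per gene. Both axes share the 0 h library. The 1836 red and 2268 blue genes moved in both, the 606 orange genes were WT rises above the 0 h level but not called in *atbbd1*, and the 111 black genes were WT rises at or below it. The dotted line marks equal ratios.

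Large rises and falls still seen in *atbbd1* included those of clock genes. Over all genes kept, 13.1% were called higher and 19.1% lower. Of 11 evening clock genes, 10 were kept, 8 were called higher and none lower, with a median log2 ratio of 4.40 in *atbbd1* and 4.13 in WT. The 5 called genes under 1 FPKM at 0 h (*FKF1*, *PRR5*, *PRR3*, *ELF4* and *ELF3*) were kept only because they were high in *atbbd1*, and over all 11 the medians were 4.22 and 3.98. *PRR5*, a pseudo-response regulator that represses morning genes, was listed at 0 FPKM in untreated WT and stood at 76.5 in WT, 72.1 in OX and 83.1 in *atbbd1* after PEG. *TOC1*, its relative and a core repressor of the clock, went from 1.77 FPKM to 52.7, 55.5 and 64.8, a ratio of 36.6 in *atbbd1* (29.2 to 46.7). *ELF4*, part of the evening complex, went from 0.10 FPKM to 77.6, 105 and 114. The 3 treated libraries lay close together for these genes whatever their genotype. *ZTL* (19.6 FPKM at 0 h and 13.1 in *atbbd1*) and *LKP2* (6.87 and 6.90), which code for light-sensing F-box proteins, were under 2-fold.

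Of the 12 morning clock genes, all kept, 10 were called lower and 1 higher, with a median of -3.87 in *atbbd1* and -3.57 in WT. *CCA1*, the partner of *LHY*, was at 157 FPKM in untreated WT and at 3.55, 6.33 and 1.95 in WT, OX and *atbbd1* after PEG, and *atbbd1* was 80.4-fold lower than 0 h (65.4 to 100.3). *RVE1*, a related MYB factor, went from 37.6 FPKM to 0.29 in *atbbd1*. The gene called higher was *PRR7*, which peaks later in the day than *PRR9*, at 21.4 FPKM in untreated WT and 80.2 in *atbbd1*. Among clock outputs, *GRP7*, an RNA-binding protein under clock control, was at 8.68 FPKM in WT at 0 h, 2446 in WT after PEG, 2091 in OX and 2822 in *atbbd1*, a ratio of 325 (278 to 383). *COL2*, a CONSTANS-like factor, went the other way, from 120.2 FPKM to 3.24, 3.86 and 3.05. No untreated library of 6 h was analysed here, so the hour of the day and PEG cannot be told apart for any of these genes.

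The 250 bases before the annotated start are shown for 3 of the strongest rises still seen, because each holds the evening element AAATATCT, a motif known from evening-phased genes. They lie at chr2:9266558-9266807 (minus strand) for *GRP7*, chr4:2118618-2118867 (minus strand) for *RbcX1* and chr5:8358547-8358796 (minus strand) for *PRR5*, in RefSeq's TAIR10.1. *RbcX1*, a chaperone for Rubisco assembly, was at 4.49 FPKM in untreated WT and 441 in *atbbd1*. Each sequence reads 5′ to 3′ on the gene's strand and ends 1 base before the start, and capitals mark the evening element on either strand.
GRP7: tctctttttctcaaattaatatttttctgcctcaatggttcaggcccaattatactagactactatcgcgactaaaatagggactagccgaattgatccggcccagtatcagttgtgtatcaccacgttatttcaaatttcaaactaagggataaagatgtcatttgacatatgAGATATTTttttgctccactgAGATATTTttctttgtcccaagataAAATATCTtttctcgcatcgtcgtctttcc
RbcX1: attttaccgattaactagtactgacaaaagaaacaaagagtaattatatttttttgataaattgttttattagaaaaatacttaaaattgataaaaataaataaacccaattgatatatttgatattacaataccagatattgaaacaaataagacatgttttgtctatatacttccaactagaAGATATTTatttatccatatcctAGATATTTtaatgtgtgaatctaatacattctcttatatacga
PRR5: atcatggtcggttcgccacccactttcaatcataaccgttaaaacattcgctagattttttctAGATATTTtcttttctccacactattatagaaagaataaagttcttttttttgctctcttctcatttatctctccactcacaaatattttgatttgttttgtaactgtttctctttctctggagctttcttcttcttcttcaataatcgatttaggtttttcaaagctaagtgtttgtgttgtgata

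Starch breakdown rose together as well. All 13 listed genes were kept, 10 were called higher and 2 lower, and the median was 3.43 in *atbbd1* and 3.16 in WT. *PHS2*, the cytosolic glucan phosphorylase, was at 8.44 FPKM in WT at 0 h, 203 in WT after PEG, 183 in OX and 220 in *atbbd1*. *GWD1*, which phosphorylates starch before it is cut, had 16.8, 246, 288 and 248 FPKM in that order. The mutant was thus within the range of the other treated libraries for *GWD1* and above it for *PHS2*. The exceptions were the beta-amylases *BAM1*, at 67.5 FPKM in untreated WT and 13.1 in *atbbd1*, and *BAM3*, at 84.9 in *atbbd1*, 2.94-fold under 0 h. *GBSS1*, the starch synthase that makes amylose, was 117-fold lower in *atbbd1* than in WT at 0 h (282 and 2.41 FPKM, interval 95.4 to 145). Of 6 kept genes of the dark and sugar starvation list, 5 were called higher and 1 lower, among them *DIN6*, an asparagine synthetase, at 0.40 FPKM in untreated WT and 5.81 in *atbbd1*.

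Cold-regulated effector genes, whose products protect membranes and chloroplasts during freezing and drying, also stayed high in the mutant, but at a lower level than in WT. Of 11 listed, 10 were kept and called higher, with a median log2 ratio of 3.60 in *atbbd1* and 5.33 in WT. Of these, *KIN1*, *COR27* and *COR28* passed the filter through *atbbd1* alone, and over all 11 the medians were 2.98 and 5.21. *COR15A*, a chloroplast protein of this group, was at 30.1 FPKM in WT at 0 h, 939 in WT after PEG, 1698 in OX and 245 in *atbbd1*. *RD29A*, the classic reporter of dehydration and cold, was at 6.17, 422, 616 and 131 FPKM. *KIN1* was at 0.47, 83.3, 266 and 8.38 FPKM. In these cases *atbbd1* was the lowest of the 3 treated libraries and OX the highest, and *atbbd1* lay 3.84-fold (3.73 to 3.95), 3.22-fold (3.12 to 3.31) and 9.95-fold (8.22 to 12.1) under WT after PEG. *COR27* and *COR28*, night-phased genes of the same list, did not show that order: *COR27* was at 0.05 FPKM in WT at 0 h, 45.2 in WT after PEG, 55.1 in OX and 72.4 in *atbbd1*. The eleventh gene, *RD29B*, whose promoter is driven by ABA, was under the filter at 0.09 FPKM in untreated WT and 0.14 in *atbbd1* (ratio 1.56, 0.292 to 9.68), against 15.8 in WT and 87.7 in OX after PEG. Upstream of them, 5 of 7 kept CBF and DREB factors were called higher and 1, *ICE1*, lower, but all 5 were under 1 FPKM at 0 h and were kept through *atbbd1* alone. Over all 10 listed the median was 0.92 in *atbbd1* and 1.51 in WT. *DREB2A* was at 0.08 FPKM in untreated WT and 5.08, 6.88 and 3.78 in WT, OX and *atbbd1* after PEG, and *CBF3* was listed at 0 and then at 17.5, 28.5 and 7.87.

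Over all genes, 50 of the 1836 rises still seen lay 2-fold or more under WT after PEG in the mutant, and 9 lay 2-fold or more over it. The dehydrins gave several of the first kind. *ERD10* was at 49.0 FPKM in WT at 0 h, 434 in WT after PEG, 655 in OX and 142 in *atbbd1*, and *COR47* at 28.0, 342, 544 and 159. *LTI30* was at 0.07, 24.7, 35 and 3.77 FPKM. All 3 were called higher than 0 h, and all 3 were lowest in *atbbd1* among the treated libraries. *NCED3*, the 9-cis-epoxycarotenoid dioxygenase that limits ABA synthesis under drought, belonged here too, at 0.93, 9.38, 18.5 and 2.69 FPKM, 2.89-fold above 0 h in *atbbd1* (2.0 to 4.25). A wide gap of this kind was in *PDF1.2*, a plant defensin induced by jasmonate and ethylene, which was named after its values were seen: 0.56 FPKM in WT at 0 h, 426 in WT after PEG, 238 in OX and 3.56 in *atbbd1*. Its near-identical copies *PDF1.2b*, *PDF1.2c* and *PDF1.3*, which can share reads with it, were at 136, 118 and 153 FPKM in WT after PEG and at 0.77, 0.43 and 0.38 in *atbbd1*. On the other side, *EXL5*, an EXORDIUM-like cell wall protein, was at 2.56 FPKM in WT at 0 h, 10.5 in WT after PEG, 9.78 in OX and 23.0 in *atbbd1*, and *JMJD5*, a histone demethylase-like gene tied to the clock, at 0.35, 4.94, 5.78 and 10.5. Both were named after their values were seen.

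The core of ABA signalling is given by role. Of 14 PYR/PYL receptor genes, 7 were kept, all under 2-fold, with a median of -0.17, where 13.1% of all genes kept were called higher and 19.1% lower. *PYL4*, which fell in WT from 10.6 to 3.53 FPKM, was at 9.32 in *atbbd1* and 1.89 in OX. Among SnRK2 kinases, 4 of 9 kept genes were called higher and 1 lower, and 2 of the 4, *SnRK2.5* and *SnRK2.9*, were kept through *atbbd1* alone. *SnRK2.2*, one of the ABA-activated kinases, was at 7.68 FPKM in WT at 0 h, 130.4 in WT after PEG, 141 in OX and 129.7 in *atbbd1*, and *SnRK2.3* at 2.91, 34.1, 32.3 and 32.8. Their levels were nearly the same in the 3 treated libraries. *SnRK2.6* (OST1), the kinase that acts in guard cells, was at 5.47 FPKM in untreated WT and 5.99 in *atbbd1*, under 2-fold. *ABF1*, one of the bZIP factors below the kinases, was at 0.80, 44.9, 44.9 and 37.6 FPKM, so its rise was seen in *atbbd1* too, at 47.0-fold (30.8 to 76.6).

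The PP2Cs hold the kinases inactive and are themselves induced by ABA. Of 9 listed, 5 were kept, none was called higher and 1 was called lower, with a median of -0.40 in *atbbd1* and 0.82 in WT (-0.07 and 0.82 over all 9). *HAI1*, a highly ABA-induced PP2C, was at 0.66 FPKM in WT at 0 h, 18.5 in WT after PEG, 62.7 in OX and 0.14 in *atbbd1*. *HAI2* was at 0.17, 11.0, 32.5 and 0.15 FPKM. *PP2CA* was at 31.5, 78.1, 154 and 29.9, and *ABI1* at 21.9, 62.5, 133 and 25.0. In each of these, OX was the highest library and the level in *atbbd1* was within 1.2-fold of 0 h or under it. *HAB1*, the gene called lower, fell in WT as well, from 34.5 to 12.3 FPKM, and was at 1.58 in *atbbd1* and 31.0 in OX. Of the 7 kept bZIPs and their AFP partners, which bind ABI5, 2 were called higher and 4 lower. Their median was -0.88 in *atbbd1* and 1.55 in WT (-0.32 and 1.27 over all 8). *AFP1* was at 1.43, 18.0, 55.7 and 0.15 FPKM, 9.53-fold under 0 h in *atbbd1* (3.47 to 37.6). *ABF3* was at 52.4 FPKM in WT at 0 h, 32.3 in WT after PEG, 57.1 in OX and 8.60 in *atbbd1*.

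Several LEA proteins rose in WT and not in *atbbd1*. Of 15 dehydrins and other LEA proteins, 10 rose in WT, 4 of these were also called higher in *atbbd1* and 4 were at or below the 0 h level. Over all 15 the median was 0.00 in *atbbd1* and 2.7 in WT. *LEA7* was listed at 0 FPKM in WT at 0 h, at 14.8 in WT after PEG, 59.1 in OX and 0 in *atbbd1*. *ABR* (AT3G02480), a small ABA-induced LEA protein, was at 0, 15.7, 233 and 0 FPKM. *LEA4-5* was at 0.65, 11.0, 73.4 and 0.20. *SAG21*, a mitochondrial LEA protein also known as LEA5, was at 11.3, 24.8, 32.5 and 2.98, 3.80-fold under 0 h (2.75 to 5.34). *RAB18*, a dehydrin used as an ABA reporter, was just above the 0 h level, at 3.17 FPKM in untreated WT and 3.84 in *atbbd1* (ratio 1.21, 0.835 to 1.76), with 57.5 in WT and 707 in OX after PEG. For all 5 genes the mutant lay beside or under the untreated WT and apart from both other treated libraries.

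The upstream sequences of *LEA7*, *ABR*, *LEA4-5* and *HAI2* are printed because each held at least 3 matches to ACGTG, counted over both strands. ACGTG is the core of the ABA-responsive element. CACGTG holds it on each strand and was counted on each, so *LEA7*, *ABR* and *LEA4-5* show fewer marked stretches than matches. They lie at chr1:19619474-19619723 (plus strand), chr3:511970-512219 (plus strand), chr5:2090431-2090680 (minus strand) and chr1:2282829-2283078 (minus strand) in that order, in RefSeq's TAIR10.1. As above they end 1 base before the annotated start, and capitals mark the core on either strand.
LEA7: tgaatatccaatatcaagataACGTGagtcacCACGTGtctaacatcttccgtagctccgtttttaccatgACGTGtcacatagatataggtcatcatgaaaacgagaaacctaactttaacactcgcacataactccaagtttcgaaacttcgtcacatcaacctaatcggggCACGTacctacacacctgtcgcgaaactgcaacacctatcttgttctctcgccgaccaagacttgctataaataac
ABR: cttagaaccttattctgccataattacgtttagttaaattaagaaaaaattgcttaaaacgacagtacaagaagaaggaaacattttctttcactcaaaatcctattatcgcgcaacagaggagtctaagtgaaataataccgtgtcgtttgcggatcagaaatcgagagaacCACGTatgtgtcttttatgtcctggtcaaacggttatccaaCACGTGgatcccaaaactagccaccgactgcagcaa
LEA4-5: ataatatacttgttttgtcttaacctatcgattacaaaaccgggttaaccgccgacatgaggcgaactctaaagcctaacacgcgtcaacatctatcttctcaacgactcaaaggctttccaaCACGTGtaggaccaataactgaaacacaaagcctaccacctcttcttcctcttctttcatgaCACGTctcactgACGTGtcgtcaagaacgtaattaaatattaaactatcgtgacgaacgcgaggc
HAI2: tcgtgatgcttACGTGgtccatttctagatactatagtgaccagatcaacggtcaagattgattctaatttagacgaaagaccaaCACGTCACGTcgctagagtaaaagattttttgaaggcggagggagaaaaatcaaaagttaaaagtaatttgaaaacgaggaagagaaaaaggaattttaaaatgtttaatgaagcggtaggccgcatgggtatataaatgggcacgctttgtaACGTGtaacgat

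**Figure D3:**
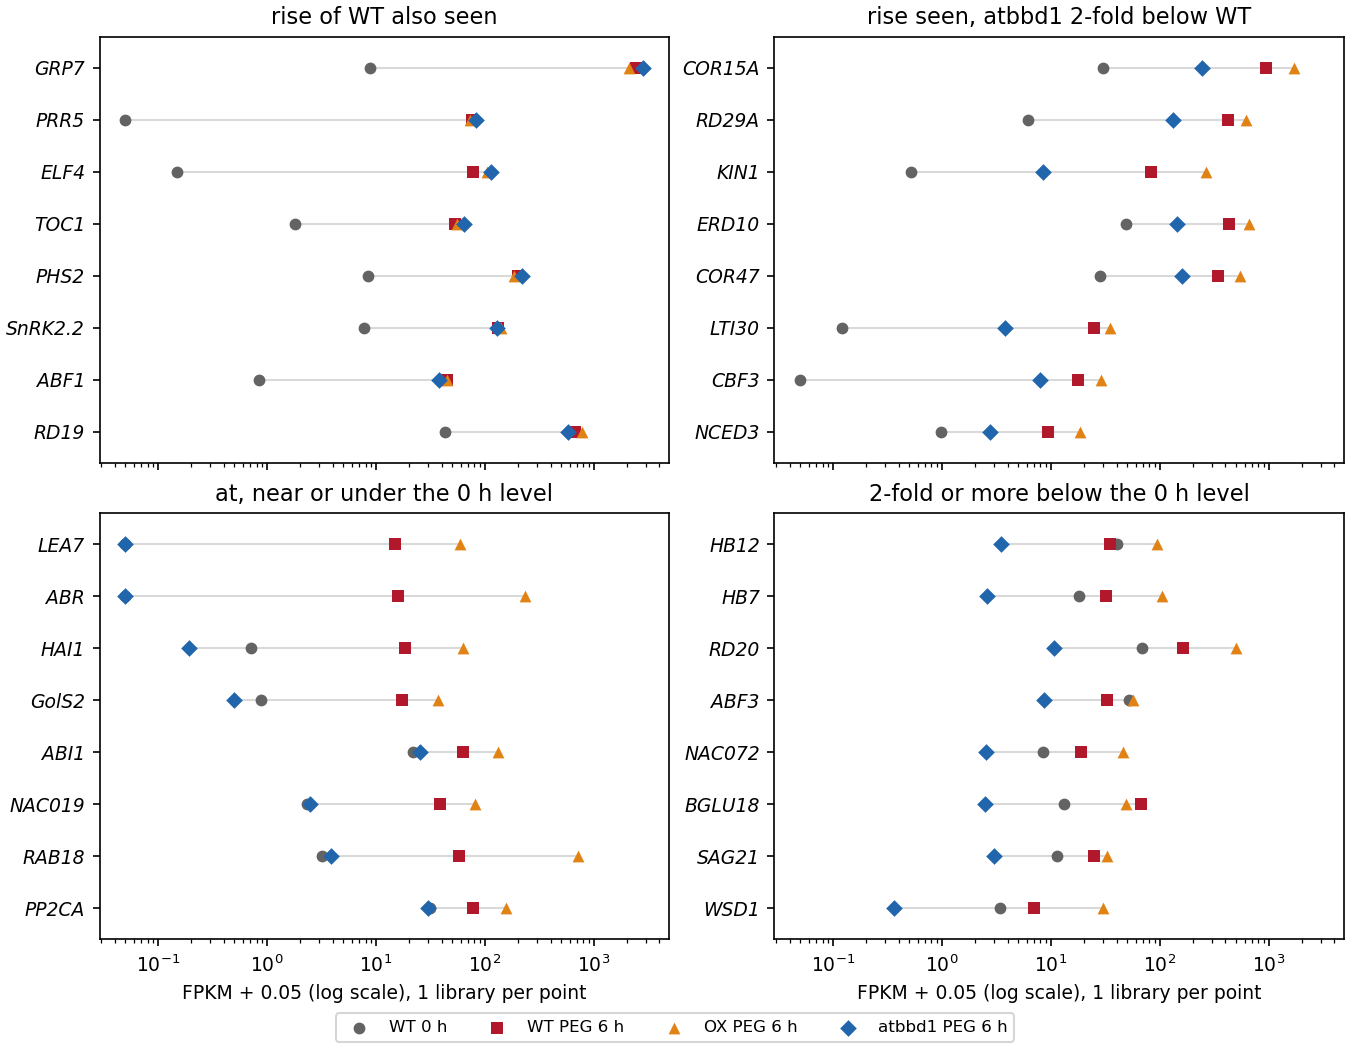
FPKM plus 0.05, on a log scale, of 32 genes in the 4 libraries, 1 library per symbol. In the first panel the 3 treated libraries lie together, in the second *atbbd1* lies between WT at 0 h and WT after PEG, in the third it lies at, near or under WT at 0 h, and in the fourth it lies under WT at 0 h by 2-fold or more.

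The 111 WT rises at or below the 0 h level in *atbbd1* were examined as a group. They reached a median of 4.99 FPKM in WT after PEG and 9.43 in OX, against 1.07 in WT at 0 h and 0.540 in *atbbd1*, and 36 of them reached 10 FPKM in WT after PEG. Estimated reads were available for 109. By their choice, *atbbd1* was at least 2-fold under WT after PEG in every one. The counting interval of *atbbd1* against WT at 0 h lay wholly below 1 for 38, so for most of them the level in the mutant could not be placed under that of untreated leaves at this depth. In the OX library, 90 were at least 2-fold above WT at 0 h and 48 at least 2-fold above WT after PEG. All were chosen as WT rises over that same 0 h library. The shares over all genes are not given, so these counts are a description only. The 12 with the highest WT rise among those of 10 FPKM or more included, beside the genes above, *GolS2*, a galactinol synthase that starts the raffinose pathway, at 0.82, 17.1, 37.1 and 0.45 FPKM, and *DIP2* (AT5G03210) at 0.67, 31.9, 102 and 0.34. A chitinase gene, AT2G43570, was at 1.95, 25.4, 20.9 and 0.36 FPKM, and *FMO GS-OX4*, a flavin monooxygenase that oxidises glucosinolate side chains, at 3.15, 23.5, 71.1 and 2.12. OX was the highest library for all of these but the chitinase. At the boundary between the classes, *NRT2.7*, a vacuolar nitrate transporter, was just inside at 19.7 FPKM in untreated WT and 19.6 in *atbbd1*, and AT5G13200 just outside at 4.33 and 4.47. Regulators of this class named after their values were seen included *PUB19*, a ubiquitin ligase that restrains ABA responses (0.81, 5.41, 23.4 and 0.02 FPKM), and *MAPKKK18*, an ABA-induced kinase (0.15, 1.52, 4.0 and 0.04).

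Of the 111 genes, 21 were called lower in *atbbd1*, that is, higher in WT and lower in *atbbd1* against the same untreated library. That call needed 1 FPKM or more at 0 h, so the 55 genes under the filter could not be counted. Some of those, such as *HAI1* and *PUB19*, were also 2-fold or more below the 0 h level. No gene was called in the opposite pattern. *RD20*, a caleosin of lipid bodies induced by drought, was at 69.2 FPKM in WT at 0 h, 164 in WT after PEG, 495 in OX and 10.5 in *atbbd1*, 6.57-fold under 0 h (5.62 to 7.71). *NAC072* (RD26), a NAC factor of the ABA response, was at 8.46, 18.9, 45.7 and 2.48 FPKM. *BGLU18*, the beta-glucosidase that frees ABA from its glucose ester, was at 13.2, 66.6, 48.8 and 2.42, and *WSD1*, a wax ester synthase, at 3.32, 6.97, 30.3 and 0.31. For *RD20*, *NAC072* and *WSD1* the order of the libraries was OX, WT after PEG, WT at 0 h and *atbbd1*. *MYC2*, the master factor of jasmonate signalling, was at 3.51, 7.11 and 8.04 FPKM and was listed at 0 in *atbbd1*, and a listed 0 can be a failed estimate.

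A wider set was at least 2-fold lower in *atbbd1* without a 2-fold fall in WT. Of the 3045 genes called lower, 777 were not WT falls, 161 were not beyond 1.2-fold lower in WT, and 42 of these had 10 FPKM or more in *atbbd1* or WT at 0 h. The lowest was *HB12*, a homeodomain-leucine zipper factor induced by ABA and water deficit, at 40.2 FPKM in WT at 0 h, 34.9 in WT after PEG, 93.2 in OX and 3.46 in *atbbd1*, 11.6-fold under 0 h (8.92 to 15.3). Its close relative *HB7* was at 17.9, 32.2, 105 and 2.52. The 8 lowest also held *FAMT*, a farnesoic acid methyltransferase (16.2, 14.7, 20.3 and 2.45), the glutathione transferases *GSTF6* (23.9, 28.6, 11.0 and 4.17) and *GSTF7* (12.5, 12.3, 3.82 and 2.18), and *BGLU11* (12.2, 10.5, 11.4 and 2.04). *GSTF6* and *GSTF7* are close paralogs that can share reads, and in both OX was also under WT after PEG, unlike in the homeodomain genes. Stress NAC factors as a list had no member called higher and 4 of 8 called lower. Their median was -1.16 in *atbbd1* and 0.12 in WT (-0.23 and 0.03 over all 11). Not all belong to the set above: 2 kept members were WT falls, among them *NAP*. *NAC072*, called lower, does belong to it and was a WT rise. Members not called included *NAC019*, a WT rise, at 2.25, 38.6, 80.9 and 2.42 FPKM, and *ATAF2* and *NAC102*, which were under 2-fold in WT too.

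In the opposite direction the mutant added little. Of the 2093 genes called higher, 257 were not WT rises and 11 were not beyond 1.2-fold higher in WT. Among those of 10 FPKM or more, 1 gene remained, *MES18*, a methyl esterase, at 5.33 FPKM in WT at 0 h, 3.99 in WT after PEG, 5.35 in OX and 15.5 in *atbbd1* (2.9-fold, 2.26 to 3.77).

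**Figure D4:**
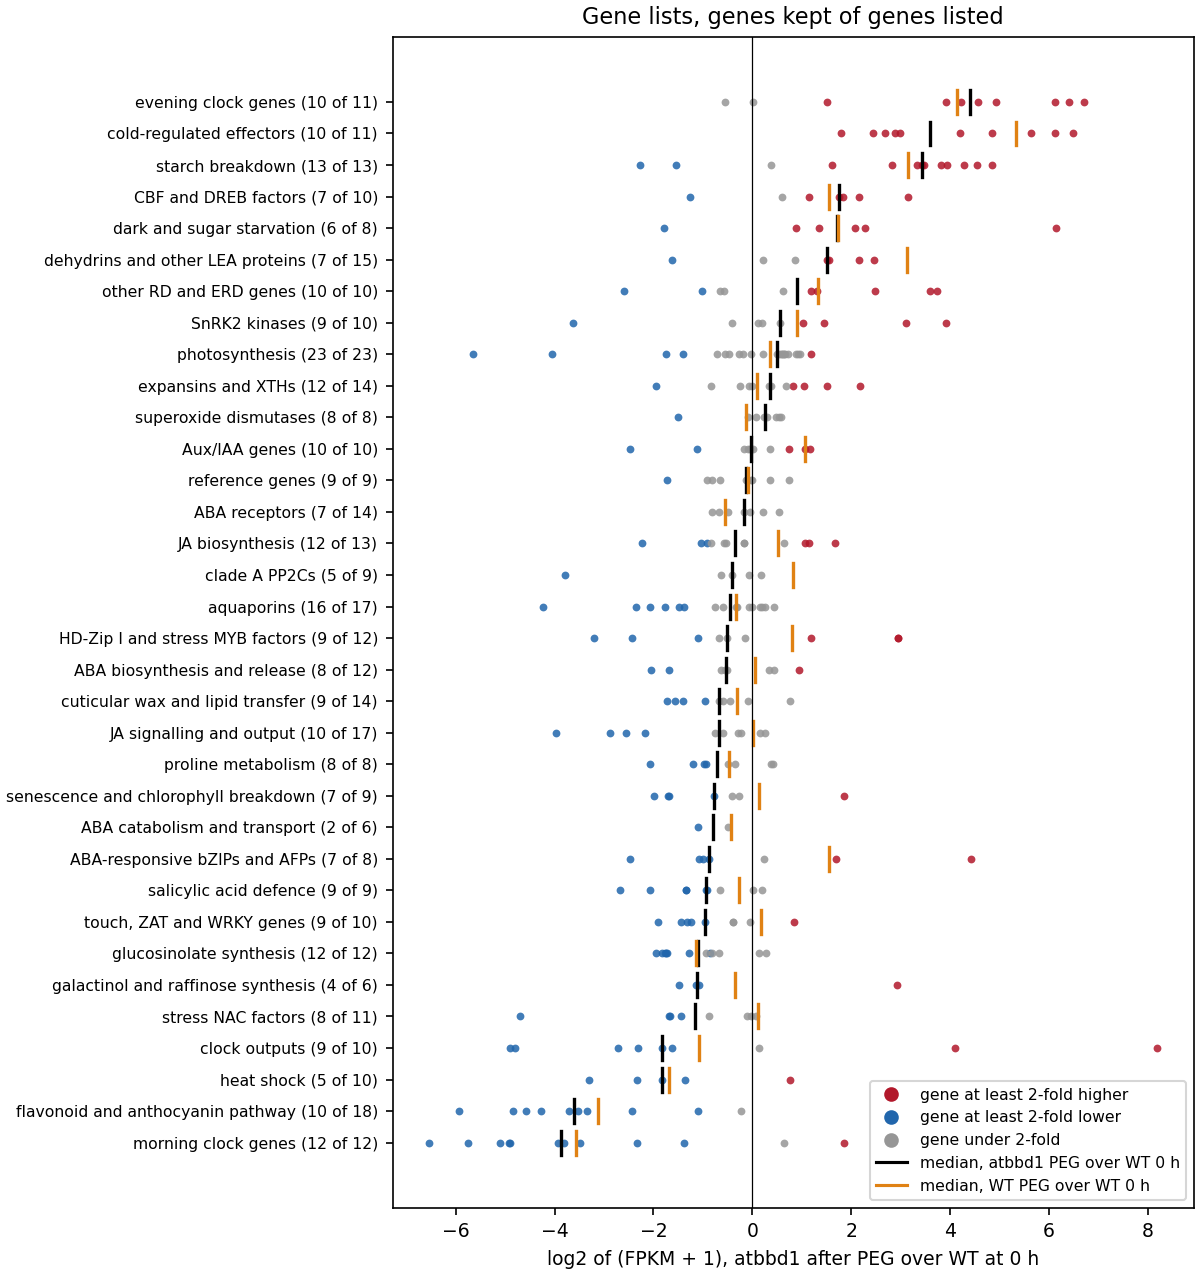
Log2 ratio, after adding 1 to all FPKM values, of *atbbd1* after PEG over WT at 0 h for the kept genes of 34 lists, 1 point per gene. Red and blue genes were at least 2-fold higher or lower, black bars are list medians in *atbbd1*, and orange bars are the medians of WT after PEG over WT at 0 h. Evening clock genes and cold-regulated effectors lie at the top and morning clock genes at the bottom. The bars lie furthest apart for the ABA-responsive bZIPs and AFPs, -0.88 in *atbbd1* and 1.55 in WT.

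Osmolyte and hormone genes followed. No gene of proline metabolism was called higher and 4 of 8 were called lower, with a median of -0.71 in *atbbd1* and -0.47 in WT, and all 4 fell in WT as well. They were the synthesis genes *P5CS2* and *P5CR* and the proline dehydrogenases *PRODH1*, at 3.09, 0.82, 0.29 and 1.08 FPKM, and *PRODH2*, at 1.23, 0.31, 0.44 and 0.17. *P5CS1*, the rate-limiting enzyme of proline synthesis, rose in WT from 48.9 to 102 FPKM and to 201 in OX, and was at 38.2 in *atbbd1*, 1.28-fold under 0 h (1.2 to 1.36). *P5CS2* was at 69.0 FPKM in WT at 0 h, 27.3 in WT after PEG, 39.1 in OX and 15.7 in *atbbd1*. Of ABA synthesis and release genes, *NCED3* was called higher and *BGLU18* and *ABA1*, zeaxanthin epoxidase, lower. *ABA1* was at 409, 144, 178 and 126 FPKM, so it was under the WT 0 h level in all treated libraries. In jasmonate synthesis 3 of 12 kept genes were called higher and 3 lower, and in jasmonate signalling and output none was called higher and 4 of 10 lower. *AOC2*, an allene oxide cyclase, was at 64.2, 234, 295 and 136, and its relative *AOC1* at 35.5, 24.9, 43.0 and 6.82, and the AOC copies can share reads. *JAZ9*, a repressor of MYC2, was at 88.4, 16.7, 32.7 and 4.67 FPKM, lowest in *atbbd1*. Salicylic acid defence genes had 6 of 9 called lower and none higher, with a median of -0.93 in *atbbd1* and -0.27 in WT. *PR2*, a beta-glucanase, was at 19.0, 8.87, 5.36 and 2.11, and *PCC1* at 75.4, 83.9, 13.7 and 29.3, where OX was under *atbbd1*.

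Among the falls still seen were genes of the flavonoid pathway. Of 18 listed 10 were kept, 9 were called lower and none higher, with a median of -3.62 in *atbbd1* and -3.12 in WT (-0.75 and -0.67 over all 18). The 9 were 6 enzymes and the regulators *HY5*, *HYH* and *MYB11*. *CHS*, chalcone synthase, the entry enzyme, was at 365 FPKM in WT at 0 h, 4.52 in WT after PEG, 5.04 in OX and 4.98 in *atbbd1*, 73.4-fold under 0 h (62.2 to 87.1). *HY5*, a light-response bZIP, was at 9.97, 1.92, 2.02 and 1.03. The 3 treated libraries were again close to each other for *CHS*. Glucosinolate synthesis had 7 of 12 called lower and none higher, at a median of -1.11 in *atbbd1* and -1.13 in WT. Of 16 kept aquaporins, 6 were called lower and none higher. *PIP2;1*, a plasma membrane water channel, was at 1208, 459, 542 and 285 FPKM, and *PIP2;3* at 75.5, 14.4, 18.9 and 3.04, with *atbbd1* the lowest library in both, though PIP copies can share reads. Over all falls still seen, *atbbd1* was at least 2-fold under WT after PEG for 236 of 2268. These included *ERD9*, a glutathione transferase among the 12 largest falls, at 257, 11.5, 26.6 and 2.79, and *NAP*, a NAC factor of leaf senescence, at 81.9 FPKM in WT at 0 h, 9.55 in WT after PEG, 24.3 in OX and 2.21 in *atbbd1*.

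The 13 WT falls at or above the 0 h level in *atbbd1* were mostly low. The only one of 10 FPKM or more was *ARR6*, a response regulator that damps cytokinin signalling, at 25.3 FPKM in WT at 0 h, 12.2 in WT after PEG, 16.6 in OX and 25.6 in *atbbd1* (ratio 1.02, 0.905 to 1.14). *HKL1*, a hexokinase-like protein, was at 7.65, 3.33, 3.42 and 9.16. Just under the 0 h level was *CSD2*, the chloroplast copper/zinc superoxide dismutase, which fell in WT from 81.5 to 21.6 FPKM and to 29.1 in OX and was at 77.0 in *atbbd1* (ratio 0.945, 0.875 to 1.02). For these genes the mutant lay beside untreated WT and apart from both other treated libraries. Of 8 genes of the superoxide dismutase list, 1 was called lower, *FSD1*, at 1112, 413, 368 and 391 FPKM.

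The remaining lists are given beside the shares over all genes kept, 13.1% higher and 19.1% lower, and several lay near or under them. Among other RD and ERD genes, named for their response to drying, 5 of 10 were called higher and 2 lower, with a median of 0.90 in *atbbd1* and 1.33 in WT. *RD19*, a cysteine protease, was at 42.7 FPKM in WT at 0 h, 667 in WT after PEG, 779 in OX and 583 in *atbbd1*. The lower ones were *RD20* and *RD21A*, a cysteine protease, at 338, 226, 358 and 167. Homeodomain and stress MYB factors had 3 of 9 called higher and 3 lower, and galactinol and raffinose synthesis 1 of 4 higher and 3 lower. Senescence and chlorophyll breakdown had 1 of 7 called higher and 4 lower, with a median of -0.77 in *atbbd1* and 0.12 in WT. Cuticular wax and lipid transfer had none of 9 called higher and 4 lower, touch, ZAT and WRKY genes 1 of 9 higher and 5 lower, and heat shock genes 1 of 5 higher and 4 lower. Of 23 photosynthesis genes 1 was called higher and 4 lower, with a median of 0.50. The lower ones included *RCA*, Rubisco activase, at 8116, 2286, 1990 and 2424 FPKM, close together in the treated libraries. Expansins and XTHs, which loosen cell walls, had 4 of 12 called higher and 1 lower, Aux/IAA genes 3 of 10 higher and 2 lower, and ABA catabolism and transport none of 2 higher and 1 lower.

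The promoters of the classes were compared by motif, in windows from 250 bases before to 50 after the annotated start, on both strands. ACGTG was found in 59 of 109 promoters of the WT rises at or below the 0 h level (54.1%), in 538 of 1834 of the rises still seen (29.3%), in 143 of 491 of the rises under 2-fold (29.1%) and in 27.4% of the promoters of all genes kept. CACGTG, the G-box, which contains ACGTG, was in 31.2%, 9.87%, 9.98% and 9.04% in the same order. The evening element AAATATCT was ordered the other way, in 5.50% of the promoters of the rises at or below 0 h, 18.1% of those still seen, 9.37% of those under 2-fold and 6.20% of all genes kept. CCGAC, the core of the dehydration-responsive element, varied less, from 16.3% of the rises still seen to 22% of those at or below 0 h, with 16.8% over all genes kept. Among genes lower in *atbbd1* and not beyond 1.2-fold lower in WT, ACGTG was in 61 of 160 promoters (38.1%). This class takes in the 21 WT rises called lower in *atbbd1*, which are also among the rises at or below the 0 h level. The rises at or below 0 h include 55 genes under the filter, which the other classes and the genes kept leave out. Over all 27443 promoters of the annotation, ACGTG was in 26.7%. A match is a description of the sequence, and no binding was measured.

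**Figure D5:**
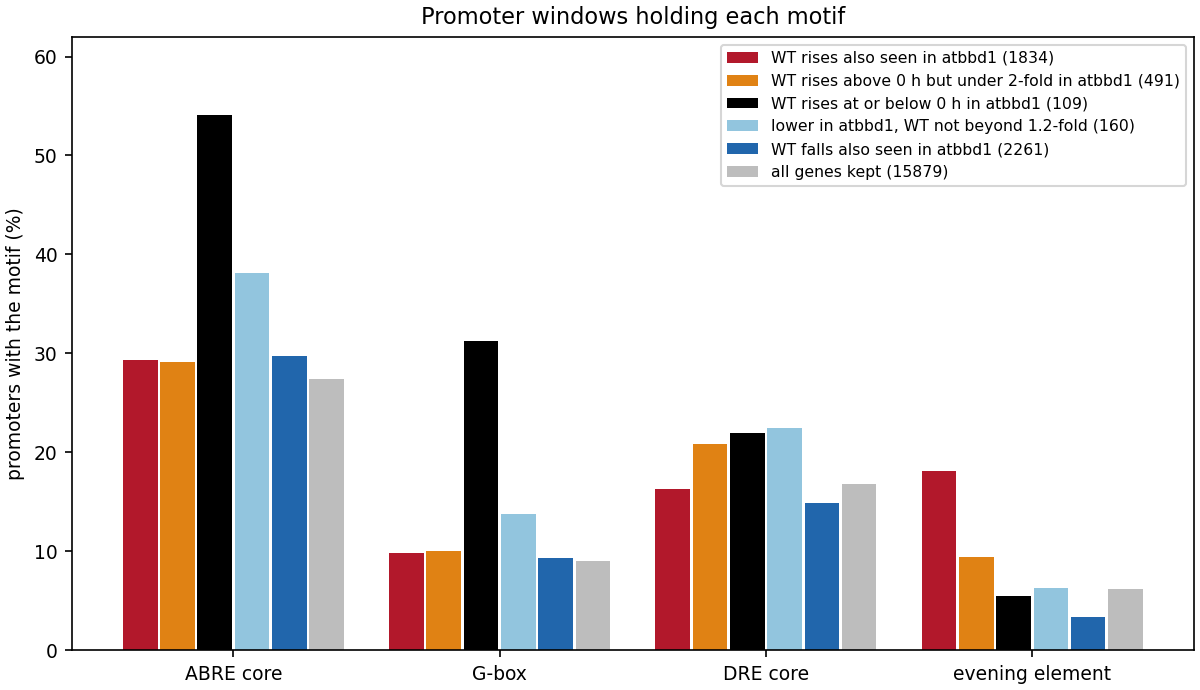
Share of promoter windows, in percent, that hold each of 4 motifs on either strand, for 5 classes of genes and all genes kept, with the number of promoters in brackets. The class lower in *atbbd1* shares genes with the black class. The black bars, WT rises at or below the 0 h level in *atbbd1*, reach 54.1% for the ABRE core and 31.2% for the G-box, and the red bars, WT rises still seen, reach 18.1% for the evening element.

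The classes also differed in gene structure and level. The 111 rises at or below the 0 h level had a median exon length of 1314 bases and 2 exons, and 33.9% had a single exon, against 1698 bases, 4 exons and 15.4% for the rises still seen and 1803 bases, 5 exons and 11.5% for all genes kept. Their median of 1.07 FPKM at 0 h was under the 2.62 of the rises still seen, and low values rest on few reads. This gap follows in part from how the classes were chosen. Of the 111, 55 were under 1 FPKM both at 0 h and in *atbbd1*, whereas every rise still seen reached 1 FPKM in *atbbd1*.

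Depth and tissue were checked once for all libraries. From the steps between low FPKM values, the mapped fragments were estimated at 15318000 for WT at 0 h, 15708000 for WT after PEG, 17681000 for OX and 16984000 for *atbbd1*. Leaf mesophyll markers were high on both sides, for example *RBCS1A* at 15027 FPKM in untreated WT and 13096 in *atbbd1*, while *CASP1* and *RHD6* of roots and *STM* and *WUS* of meristems were listed at 0. Other root markers were detected: *SCR* was at 19.4 FPKM in untreated WT and 5.97 in *atbbd1*, and *WOX5* at 0.06 and 1.23. Of 6 guard cell markers 4 were kept, 1 called higher and 1 lower, of 8 vascular markers 6 were kept, with 1 called higher, *SWEET12* (1.99 and 21.8 FPKM), of 3 kept root markers 1 was called higher and 1 lower, of 5 mesophyll markers 1 higher and 1 lower, and both kept trichome markers were called lower, with *TRY* at 24.1 and 0.20. The part of cell make-up in the results was not tested, and fewer cells of a type cannot be told apart from less RNA per cell. Of 9 reference genes 1 was called lower, *UBQ10*, at 1212 FPKM in untreated WT and 367 in *atbbd1*, and the median of the list was -0.14.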

How the data were processed

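Leaf mRNA was sequenced in 4 libraries, and the authors aligned the reads to TAIR10 and computed FPKM per gene with Cufflinks. The submitters' processing notes name TopHat2 as the aligner and the study's methods HISAT2, and which of them made the table was not settled. Deposited FPKM values entered unchanged. Ratios were taken without a pseudocount and called at 2-fold, and a listed 0 gave a call where the larger value was 1 FPKM or more. Medians of lists used log2(FPKM + 1), which understates the change of low genes. WT rises had 1 FPKM or more after PEG, and WT falls 1 FPKM or more at 0 h. Mapped fragments per library were estimated as the total at which low FPKM values times exon length came nearest to whole reads, within 0.15 of a read. Genes with 1 annotated transcript, at most 1500 exonic bases and up to 40 reads were used. Of their values, 99.2% to 99.3% were then whole, against 23.9% to 25.3% at the median of the other totals. Reads of genes with more transcripts were estimated from the union of their exons, which this fit did not check. The estimated totals gave exact 95% binomial intervals of ratios, which cover counting error only. No test was made, since each group held 1 library. Exon lengths, starts and promoters came from RefSeq's annotation of TAIR10.1, which matched 27444 of 27655 gene IDs. Scripts ran in Python 3.11.15 with numpy 2.4.6, pandas 2.3.3 and scipy 1.17.1 and were tested on simulated data.

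The comparison, the 34 gene lists and 6 marker lists were chosen with earlier results of these data known, and several ABA and drought genes in them are ones the study drew from these libraries, so no list count is independent evidence. Named genes were the target and its paralog, and members of the lists. To these were added the 12 highest and 12 lowest ratios among genes of 10 FPKM or more. The 12 highest WT rises at or below 0 h were also named. So were up to 8 genes of each kind that moved one way in *atbbd1* and not that way in WT, or the reverse. Genes named after their values were seen are marked. The alternatives were other filters, pseudocounts, thresholds and scalings, and calls limited to genes past counting error. The promoter sequence of 1 gene is not reported here.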

Additional observations from a re-analysis of the deposited data

Results flagged for a closer look

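Among genes of 1 FPKM or more at 0 h, 21 were at least 2-fold higher in WT and at least 2-fold lower in *atbbd1*. Both ratios, after PEG, were against the same untreated library, and for all 21 both counting intervals lay beyond 1. With 1 library per genotype, the difference between genotypes was not tested. The 14 of these genes that reached 10 FPKM in WT after PEG are given by their log2 ratio of *atbbd1* to WT at 0 h. Among regulators it was -3.25 for *AFP1*, -1.11 for *AFP3* and -1.77 for *NAC072*. Among enzymes it was -2.45 for *BGLU18*, -1.12 for *PGDH*, a phosphoglycerate dehydrogenase of serine synthesis, and -2.44 for the chitinase AT2G43570 (*CHI* in the annotation). *RD20* had -2.72 and *SAG21* -1.93. *AtBBD1* itself had -1.38. The others were AT1G52000 at -2.63, AT2G28400 at -1.41, the amino acid transporter AT2G41190 at -2.84, AT3G14280 at -1.43 and AT3G27250 at -2.44.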

How the results depend on the processing

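Both rescalings of the libraries, by the median of ratios and to a common sum, and a pseudocount of 0.1 left the 6 counts within 1.5 times their value. The share of higher among all calls was 40.7% as deposited, 43.9% and 35.9% under the 2 scalings. With no filter on low FPKM, 3301 genes were called higher and 4824 lower, 289 WT rises were at or below 0 h, 3428 WT falls were also seen and 172 were at or above 0 h. With a filter of 5 FPKM, 19 WT rises were at or below 0 h and 3 WT falls at or above it. With WT after PEG added to the filter, 111 WT rises were at or below 0 h. With 1 added to each FPKM these 2 classes held 37 and 3 genes. At 4-fold, 797 genes were called higher and 1162 lower, 692 WT rises and 715 WT falls were also seen, and 10 rises and 2 falls were on the other side of 0 h. Where every ratio had to pass its counting interval, 31 rises and 2 falls were. These moves follow from which genes each setting admits. The median of the Aux/IAA list, -0.02 as deposited, became 0.03 under the median of ratios, and no other list median changed sign under the 3 settings tried. With 0.1 added, 7 of 34 list medians moved, among them evening clock genes to 5.26, cold-regulated effectors to 4.14 and CBF and DREB factors to 4.31. At 4-fold the count of higher genes moved for 11 lists and that of lower genes for 21. On the forward strand alone, ACGTG was in 46.8% of the promoters of the rises at or below 0 h and in 19.1% of all genes kept. The settings could not test replicate spread, since each group held 1 library, and changes of genes with few reads, as in many of the rises at or below 0 h, are limited by depth.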

Other observations

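Genes of jasmonate and ethylene defence, which were on no list, were looked up after *PDF1.2* had been seen. *ORA59*, the factor that drives *PDF1.2*, was at 0.54 FPKM in WT at 0 h, 1.17 in WT after PEG, 0.36 in OX and 0.05 in *atbbd1*. These values rest on 9, 20, 7 and 1 estimated reads, and the interval of its WT rise, 0.943 to 5.40, covers 1. *ERF2* was at 3.97, 13.1, 10.3 and 2.87 FPKM and *PR4*, a chitin-binding defence protein, at 5.41, 14.9, 8.92 and 3.89. All 3 were WT rises at or below the 0 h level in *atbbd1*, and in all 3 OX was under WT after PEG, whereas in *HAI1*, *LEA7* and *RAB18* OX was above it.

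Aux/IAA genes, early targets of auxin, had 6 WT rises, of which 3 were also seen in *atbbd1* and 2 were at or below 0 h. *IAA29* was at 3.25 FPKM in WT at 0 h, 26.6 in WT after PEG, 15.2 in OX and 8.49 in *atbbd1*, and *IAA1* at 15.0, 33.4, 28.5 and 13.2. In wax and lipid transfer, *LTP3* was at 0.25, 65.6, 468 and 0.61 FPKM and *LTP4* was listed at 0 and then at 15.0, 243 and 0.14, and these 2 neighbours are similar enough to share reads.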
